A study of Mus musculus with 9 samples.

Results

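Advanced glycation end products and high glucose, both features of diabetes, were set against each other directly in a mouse podocyte line. The comparison used 6 of the study's 9 RNA sequencing libraries, 3 from cells given the glycation end products (AGEs) and 3 from cells given high glucose, and took every gene with enough counts, 17680 of the 55385 in the table. All cells were the wild-type line MCP5, labelled as podocytes. The high glucose group received glucose at 50 mmol/L and the AGEs group received AGEs at 400 µg/mL. Treatment of the 3 control libraries is labelled blank, and their levels are given beside those of both treatments for some of the genes. A difference between the treatments does not by itself say which of them differs from control. The study's stated aim was to find genes that differ among the 3 groups. The labels state neither how long the cells were treated nor the glucose level of the other media. None of the 9 libraries is labelled as an osmotic or carrier-protein control, so effects of osmolarity and of carrier protein were not tested. Libraries are numbered within a group, but no label calls them separate cultures; p-values then reflect spread among these libraries alone, which may be technical.

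Podocytes are the epithelial cells whose foot processes wrap the glomerular capillaries of the kidney. Of 39 podocyte markers, 29 were abundant enough to be tested, and Foxc2, Lmx1b, Kirrel2, Trpc6 and Cdkn1c were at 0 in all 6 treated libraries. Wt1, the transcription factor that defines mature podocytes, was seen only in high glucose library 2, with 11 counts, among the 6 treated libraries. The treated cells therefore carried the podocyte label without several of the defining markers. Others, among them Synpo, Podxl and Vegfa, were expressed and are described below. Total counts ranged from 46284878 to 77242281 per library. The first principal component of the 6 libraries held 49.4% of the variance and separated high glucose (64.7 to 71.6) from AGEs (−75.2 to −63.6). The second held 17.6% and set AGEs library 3 (80.8) apart from AGEs libraries 1 (−52.3) and 2 (−24.8). These are bulk samples, in which fewer cells of a kind and less RNA per cell cannot be told apart.

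The endoplasmic reticulum (ER) folds secreted and membrane proteins. When unfolded protein builds up there, the sensors Atf6, Ern1 (IRE1) and Eif2ak3 (PERK) switch on chaperones, enzymes that form disulfide bonds and a route that returns failed proteins to the cytosol for degradation. PERK and related kinases also phosphorylate the initiation factor eIF2, which slows translation but favours the factor ATF4, whose targets include the death-linked factor CHOP (Ddit3) and genes that make and import amino acids; this branch is the integrated stress response. AGEs are proteins altered by sugars without enzymes, and they bind receptors such as RAGE (Ager) and galectin-3 (Lgals3). Glucose itself acts on transcription through MondoA and ChREBP, which bind E-box pairs in genes such as Txnip and Arrdc4.

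The sequences below are shown because promoters of genes that differed between the treatments hold short elements named for these pathways. The ER stress element (ERSE, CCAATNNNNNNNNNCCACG) was searched on both strands in the 250 bases before each start in the RefSeq promoter table (GRCm38.p6). It was found in 37 of 32851 promoters (0.113%) and in 10 of 28 promoters of the list of ER chaperones, folding and degradation genes. Genes holding it in that list were Hspa5, Hsp90b1, Calr, Canx, Pdia6, Dnajc3, Creld2, Syvn1, Ero1b and Derl3, and all but Derl3 were called higher in AGEs than in high glucose. In the list as a whole 29 of 32 members tested were called higher in AGEs, so members with the element were called about as often. Of 35 genes with the element in the whole table, 11 were called higher in AGEs, 9 of them in that list, and 1, Acacb, higher in high glucose. The other genes were not called (8) or not tested (15). Over all genes tested, 19.7% were called higher in AGEs and 20.2% higher in high glucose. Each sequence reads 5′ to 3′ on the gene's own strand, with the fixed letters of the element in capitals, or their complement where it lies in the antisense orientation, and 30 bases on each side.
Hspa5: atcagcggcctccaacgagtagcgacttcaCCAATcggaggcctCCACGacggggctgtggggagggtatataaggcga
Creld2: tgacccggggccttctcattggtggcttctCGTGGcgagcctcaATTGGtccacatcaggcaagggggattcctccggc
Hsp90b1, distal: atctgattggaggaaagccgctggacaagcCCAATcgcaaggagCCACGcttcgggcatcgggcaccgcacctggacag
Hsp90b1, proximal: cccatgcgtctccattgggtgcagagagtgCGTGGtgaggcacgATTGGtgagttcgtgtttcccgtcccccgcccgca
Calr: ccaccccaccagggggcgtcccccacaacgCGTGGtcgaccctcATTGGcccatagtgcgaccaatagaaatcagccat
Pdia6: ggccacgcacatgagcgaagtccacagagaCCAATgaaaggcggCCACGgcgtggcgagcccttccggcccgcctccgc
Dnajc3: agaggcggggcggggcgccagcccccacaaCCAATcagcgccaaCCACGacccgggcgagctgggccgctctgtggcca
These stretches lie at chr2:34771995-34772073 on the plus strand (Hspa5), chr15:88819490-88819568 on the plus strand (Creld2), chr10:86705608-86705686 and chr10:86705503-86705581 on the minus strand (Hsp90b1), chr8:84847045-84847123 on the minus strand (Calr), chr12:17266461-17266539 on the plus strand (Pdia6) and chr14:118937797-118937875 on the plus strand (Dnajc3).

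A second form of the element (ERSE-II, ATTGG and CCACG 1 base apart) was in 10 of all promoters and, within the list, in that of Herpud1. The C/EBP-ATF response element (CARE, TGATGNAA), to which ATF4 binds, was in 3.45% of all promoters. Its share was lower in promoters of genes higher in AGEs (2.74%), higher in high glucose (1.98%) and not called (1.75%). It was in 5 of 22 promoters of the list of CHOP, ATF4 and integrated stress response regulators, belonging to Atf3, Chac1, Fgf21 and Nupr1 (higher in AGEs) and Vldlr (higher in high glucose). Among the list of serine, one-carbon and asparagine synthesis it was in 2 of 15 promoters, those of Asns and Pycr1, and among the aminoacyl-tRNA synthetases in 3 of 12, those of Aars, Gars and Tars. A match says only that these letters are in this window. In the following sequences the capitals mark the fixed letters of ERSE-II (Herpud1) or of CARE, with the complement shown where CARE lies in the antisense orientation. The Asns stretch, 53 bases long, is cut at the start of the gene and so has fewer bases after the element.
Herpud1: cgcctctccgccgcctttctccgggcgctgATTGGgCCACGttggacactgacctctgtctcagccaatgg
Atf3: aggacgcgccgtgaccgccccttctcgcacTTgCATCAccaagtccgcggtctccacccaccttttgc
Chac1: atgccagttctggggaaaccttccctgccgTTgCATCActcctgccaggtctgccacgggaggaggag
Asns: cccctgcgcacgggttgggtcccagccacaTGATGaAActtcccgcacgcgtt
Their positions are chr8:94386347-94386417 on the plus strand (Herpud1), chr1:191183406-191183473 on the minus strand (Atf3), chr2:119351019-119351086 on the plus strand (Chac1) and chr6:7693210-7693262 on the minus strand (Asns). The starts are those of RefSeq promoters and can differ from the ends of the gene spans deposited with the counts. The Hspa5 and Atf3 stretches lie within those spans.

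AGEs and high glucose left the cells with widely different transcript levels. By edgeR's quasi-likelihood test with Benjamini-Hochberg adjustment, the source of every adjusted p given here, 7053 of 17680 genes were called at an adjusted p under 0.05 (39.9%). Of these, 3481 (19.7% of genes tested) were higher in AGEs and 3572 (20.2%) were higher in high glucose. A difference of at least 2-fold was seen in 936 genes higher in AGEs (5.29%) and 1524 higher in high glucose (8.62%), and one of at least 8-fold in 95 and 190. Libraries of the 2 groups did not overlap for 9289 genes (52.5%). Across all genes tested the median difference, AGEs over high glucose, was −0.02 on the log2 scale, so list medians from this fit can be read against 0. List medians with library totals or FPKM are to be read against the all-gene medians of those fits, given below. Without AGEs library 3, the one that stood apart, 3381 genes were called higher in AGEs and 3495 higher in high glucose.

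Scaling changed the balance between the directions. With library totals in place of TMM factors the split was 2251 higher in AGEs and 5101 higher in high glucose, so the latter made up 69.4% of calls against 50.6% with TMM. By limma on log2(FPKM + 1) the split was 2314 and 5509 (70.4%), and with a pseudocount of 0.1 it was 2341 and 5433 (69.9%). Over all genes, the median difference was −0.22 (log2) with library totals, and −0.09 and −0.18 in the FPKM fits. The 10 most abundant genes took 4.18 to 4.76% of counts in high glucose libraries and 6.87 to 7.48% in AGEs libraries. Directions of small differences therefore hold relative to the scaling.

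Control levels lay mostly on the AGEs side. Among genes higher in AGEs, the median log2 fold change was 0.70 for AGEs over high glucose, 0.04 for AGEs over control and −0.65 for high glucose over control. Among genes higher in high glucose, the medians were −0.88, −0.08 and 0.80. Control's mean was nearer to AGEs than to high glucose for 90.7% of called genes and for 74.2% of all genes tested. The same test called 15 genes between AGEs and control (0.0848%; 2190 genes had an unadjusted p under 0.05) and 6946 between high glucose and control (39.3%). These contrasts share libraries with the direct one, so their values are set beside it and not counted as further evidence.

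**Figure D1:**
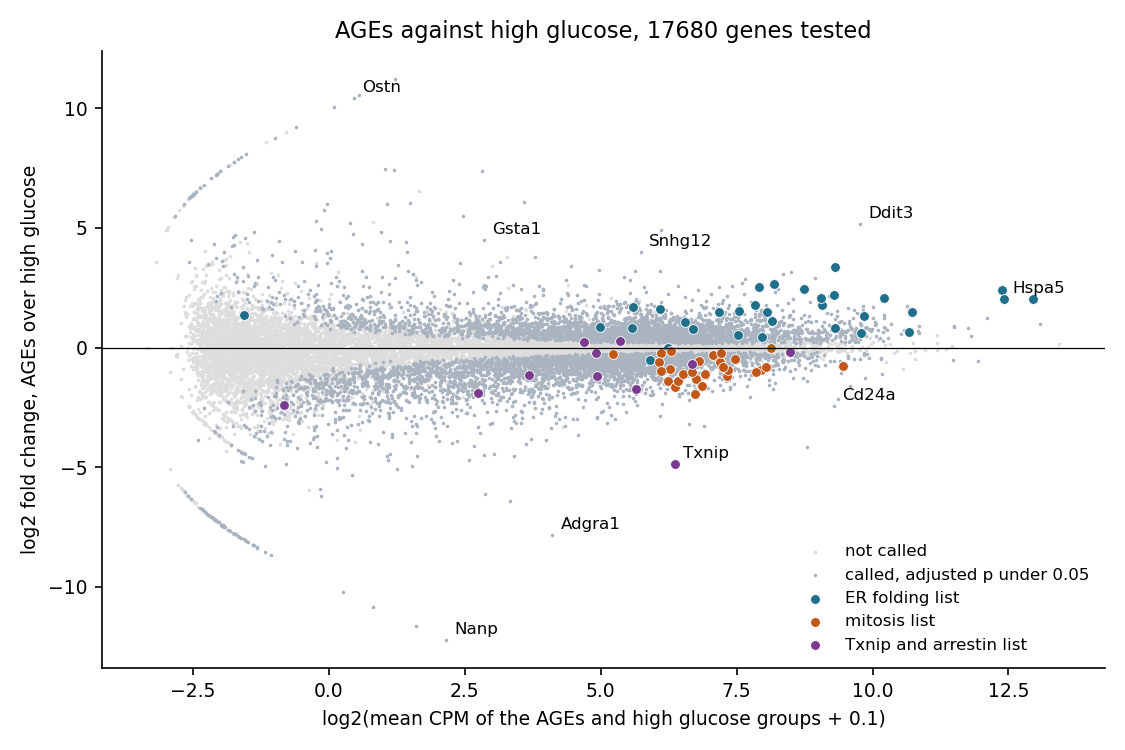
Each point is 1 of the 17680 genes tested; the x axis is log2 of the mean CPM of the AGEs and high glucose groups plus 0.1, the y axis the log2 fold change of AGEs over high glucose, and coloured points are 3 gene lists. The ER folding genes lie above 0 apart from Sec61b and Edem2, most mitosis genes and Txnip lie below it, and the curved edges at low levels are genes with 0 counts in 1 group.

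Genes that fold and inspect proteins in the ER were higher in AGEs than in high glucose. Of 32 members tested, 29 were called higher in AGEs and 1 was called higher in high glucose, with a median log2 fold change of 1.5. Hspa5, the chaperone BiP (chr2:34771970-34777547, plus strand), was at 7611, 7810 and 11049 CPM (counts scaled to library size with TMM factors) in AGEs libraries 1 to 3, at 2264, 2107 and 2131 in high glucose and at 6982, 6813 and 6022 in control. AGEs library 3 was the highest, and every AGEs library lay far above every high glucose library. The log2 fold change was 2.03 (SE 0.14, adjusted p = 6.92e-06). Pdia4, a disulfide isomerase, was at 1972, 1967 and 1815 CPM in AGEs and at 458, 448 and 454 in high glucose, a difference of 2.08 (SE 0.06, adjusted p = 1.41e-07). The membrane protein Herpud1, which takes part in ER-associated degradation, differed by 3.36 (SE 0.16, 10.2-fold, adjusted p = 9.42e-07), the largest log2 fold change of the list.

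Other chaperones and folding factors followed. Hsp90b1, the ER form of HSP90, was at 9995, 9148 and 7930 CPM in AGEs and 1792, 1570 and 1695 in high glucose (5.35-fold, adjusted p = 9.42e-07). Calr, the lectin chaperone calreticulin, averaged 12653 ± 1515 CPM in AGEs and 3137 ± 232 in high glucose (SD, n = 3; 4.03-fold, adjusted p = 1.21e-06). Sdf2l1, Creld2, Manf and Hyou1 differed by 2.55, 2.45, 2.22 and 2.09 on the log2 scale. The degradation adaptor Sel1l was 6.23-fold higher and the sensors Atf6 and Ern1 differed by 1.76 and 0.85. Xbp1, whose mRNA is spliced by IRE1, differed by 0.82 (adjusted p = 0.000215) in its total level; splicing was not measured. Against the direction of the list, the translocon subunit Sec61b was lower in AGEs by 0.50 (adjusted p = 0.00203), and Derl3 (1.36, adjusted p = 0.0888) and Edem2 (−0.03) were not called. The list took 1.5 ± 0.021% of counts in high glucose, 4.6 ± 0.2% in AGEs and 4.68 ± 0.076% in control. Atp2a2, the calcium pump SERCA2 that fills the ER store, was 3.01-fold higher in AGEs (1416, 1321 and 1369 CPM against 461, 447 and 455, adjusted p = 2.28e-07).

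Ddit3, Atf3 and other regulators of the integrated stress response were higher in AGEs, while 8 of 19 members were not called. Of 19 tested, 10 were higher in AGEs and 1 was higher in high glucose, with a median of 0.52 (0.32 with library totals). Ddit3, which encodes CHOP (chr10:127290774-127296288, plus strand), stood at 1569, 1614 and 1909 CPM in AGEs, at 48.8, 50.3 and 42.8 in high glucose and at 1692, 1655 and 1668 in control. AGEs and control libraries overlapped, and the 3 high glucose libraries were far below all others. It differed by 5.17 on the log2 scale (SE 0.11, 35.9-fold, adjusted p = 2.83e-08). Ddit3 overlaps Mars on the opposite strand, and the strand setting of the counts is not given. Mars had 141724 counts over the 9 libraries against 676338 for Ddit3, of which only 9999 came from high glucose. Reads from Mars could weigh more in that group, which was not tested. Ppp1r15a (GADD34, which recruits the eIF2 phosphatase) was 9.03-fold higher in AGEs, Atf3 7.32-fold, the pseudokinase Trib3 4.71-fold and the hormone gene Fgf21 5.96-fold.

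Atf4 itself differed less and varied more. Its levels were 1465, 792 and 846 CPM in AGEs, 660, 387 and 376 in high glucose and 1654, 1591 and 643 in control. The treated groups did not overlap, but 1 control library lay below the highest high glucose library. The log2 fold change was 1.12 (SE 0.39, adjusted p = 0.0428). The listed kinases Eif2ak3 (0.00) and Eif2ak4 (−0.20), and also Atf5 (0.09), Ppp1r15b (0.06) and Ddit4 (0.00), were not called. Vldlr, a lipoprotein receptor gene, was the member higher in high glucose (−0.70, adjusted p = 0.00046).

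**Figure D2:**
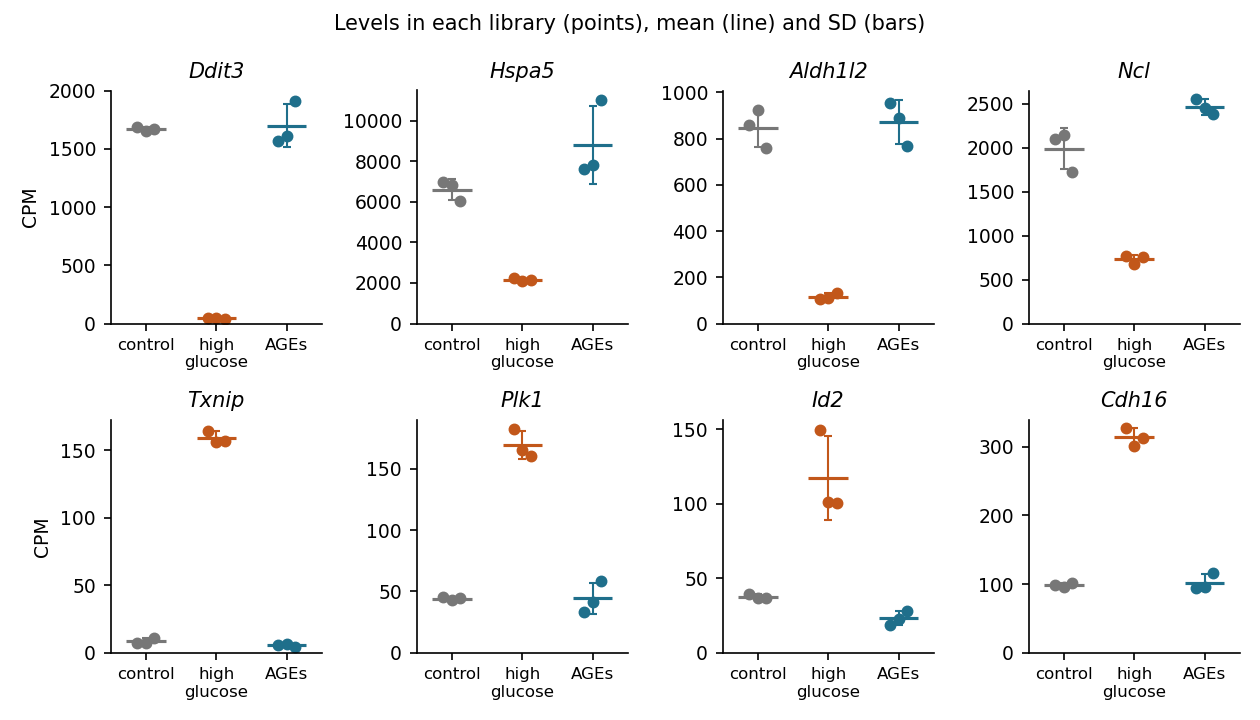
CPM of 8 genes in each library, by group; points are libraries, lines the mean and bars the SD of 3. Ddit3, Hspa5, Aldh1l2 and Ncl are lowest in high glucose, and Txnip, Plk1, Id2 and Cdh16 are highest there; AGEs lie nearer to control, with Id2 below it.

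Enzymes that make serine, glycine, asparagine and one-carbon units were higher in AGEs in 14 of 15 cases, with a median of 1.61. Aldh1l2, a mitochondrial folate enzyme that yields NADPH, was at 955, 888 and 769 CPM in AGEs and at 105, 112 and 132 in high glucose (log2 fold change 2.90, SE 0.12, 7.48-fold, adjusted p = 6.68e-07). Cth, which releases cysteine from cystathionine, was at 55.3, 63 and 52.3 CPM in AGEs and at 5.67, 6.94 and 5.45 in high glucose (9.46-fold, adjusted p = 4.02e-07). No library of either gene came near the other group. Shmt2, Mthfd2, Mthfd1l and Pycr1 differed by 1.74, 1.61, 1.80 and 1.86, and Asns, Psat1 and Phgdh by 1.05, 1.06 and 0.83. Cbs, which makes the cystathionine that Cth cleaves, went the other way. It was at 94.5, 77.7 and 73.4 CPM in high glucose, 17.2, 14.1 and 21.1 in AGEs and 24.6, 25 and 24.5 in control (−2.23, SE 0.16, adjusted p = 7.84e-06).

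Genes of amino acid import and tRNA charging were also higher in AGEs. Of 14 amino acid transporters tested, 10 were higher in AGEs and 1, Slc7a6 (−0.45), was higher in high glucose, with a median of 1.07. With library totals, either FPKM fit or without AGEs library 3, 2 were higher in high glucose. Slc3a2, the shared heavy chain of several transporters, was at 975, 983 and 936 CPM in AGEs and 227, 219 and 200 in high glucose (4.48-fold, adjusted p = 2.54e-07). Slc6a9, a glycine transporter, was 5.35-fold higher and Slc1a4 3.12-fold higher. The cystine transporter Slc7a11 was at 44.7, 48.1 and 59.2 CPM in AGEs, 15.1, 14.5 and 18.1 in high glucose and 25.4, 29.9 and 19.9 in control. It differed by 1.67 (SE 0.17, adjusted p = 7.3e-05), and AGEs lay above control in each library, though that contrast was not called (1.01, adjusted p = 0.117). The aminoacyl-tRNA synthetases, which load tRNAs, were higher in AGEs in 17 of 20 cases and higher in high glucose in none. Their median was 0.67, and Eprs and Iars, for example, differed by 1.67 and 1.42. In high glucose 1 synthetase was higher with DESeq2, upper-quartile factors, library totals or either FPKM fit. The same number was higher there with a filter of mean CPM of at least 1 or without AGEs library 3. Dars (0.23), Qars (0.01) and Mars (−0.31, adjusted p = 0.0505) were not called.

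Ribosomal protein genes and the factors that build ribosomes were also higher in AGEs. Of 37 cytosolic ribosomal proteins tested, 36 were higher in AGEs, with a median of 0.76; Rpl11 (0.32, adjusted p = 0.0675) was not called. Rps6, a small-subunit protein, was at 1424, 1440 and 1326 CPM in AGEs and 758, 756 and 658 in high glucose (1.93-fold, adjusted p = 1.56e-05). Ribosomal proteins have many processed copies in the genome, so their counts depend on how the authors assigned shared reads. Of 24 ribosome biogenesis factors, 22 were higher in AGEs and none higher in high glucose, with a median of 1.23. Ncl (nucleolin) was at 2556, 2446 and 2380 CPM in AGEs, 764, 682 and 761 in high glucose and 2104, 2144 and 1722 in control (3.34-fold, adjusted p = 1.92e-06), so that all AGEs libraries were above all control libraries. Npm1 was 3.22-fold and Nop56 2.68-fold higher than in high glucose. The polymerase I subunits Polr1b (0.26) and Polr1c (0.17) were not called. Snhg12, a host transcript of small nucleolar RNAs, was 15.9-fold higher (103, 105 and 94.3 CPM against 6.91, 5.38 and 6.65, adjusted p = 2.02e-07).

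Targets of p53 and several early response factors were higher in AGEs. Of 21 p53 targets, 14 were higher in AGEs and 1, Sesn1 (−1.36, adjusted p = 2.61e-05), was higher in high glucose, with a median of 0.76. The polo-like kinase Plk2 was at 477, 500 and 495 CPM in AGEs, 89.3, 99.9 and 107 in high glucose and 371, 357 and 377 in control (4.98-fold, adjusted p = 2.02e-07). The death receptor gene Eda2r was 12-fold higher and the nuclease gene Aen 2.59-fold, while Cdkn1a (p21) was not called (0.39, adjusted p = 0.0524). Among 24 immediate-early and AP-1 factors, 11 were higher in AGEs and 4 higher in high glucose, with a median of 0.52 (0.31 without AGEs library 3, 0.32 with library totals, 0.12 and 0.16 with FPKM). Myc was at 90.4, 98.9 and 139 CPM in AGEs and 26.9, 30 and 29.8 in high glucose (1.92, SE 0.17, adjusted p = 2.83e-05). Klf4 and the phosphatase Dusp5 differed by 1.87 and 1.74. Junb (−1.19, adjusted p = 0.00234), Fosb (−1.57), Fosl2 (−0.51) and Egr1 (−0.58) were higher in high glucose.

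In the opposite direction, Txnip and its arrestin relatives were higher in high glucose. Txnip binds thioredoxin and promotes the removal of glucose transporters from the cell surface. It lies at chr3:96557957-96561883 on the plus strand, and was at 165, 156 and 157 CPM in high glucose, 5.44, 6.62 and 4.17 in AGEs and 7.52, 7.26 and 11.3 in control. Its lowest high glucose library was above 150 CPM and all other libraries were below 12. The log2 fold change was −4.88 (SE 0.22, 29.4-fold, adjusted p = 9.42e-07). Arrdc4, at 9.68, 11.8 and 9.87 CPM in high glucose and 3.38, 2.72 and 2.23 in AGEs, differed by −1.91 (SE 0.21, adjusted p = 0.000111), and Arrdc3 by −1.75. In the list of Txnip, arrestins and glucose-sensing regulators 7 of 11 were higher in high glucose and none in AGEs (5 and 1 without high glucose library 2), with a median of −1.16. The glucose-sensing factors Mlxip (0.25) and Mlx (0.29) were not called, and Mlxipl (ChREBP) had a log2 fold change of −2.40 at a low level and was not called either. The exact E-box pair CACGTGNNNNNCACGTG was in none of the 32851 promoters in the 250 bases searched, so its absence says nothing about this list. Pairs with other letters were not searched. A single CACGTG was in 3 of 12 promoters of the list, those of Arrdc4, Mlx and Mlxipl, and in 6.02% of all promoters. Its share was 10.9% in promoters of genes higher in AGEs, 5.87% higher in high glucose and 7.72% not called. The aminoacyl-tRNA synthetases, mostly higher in AGEs, also had it in 3 of 12 promoters, so it does not set the Txnip list apart.

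Glycolysis genes were called in both directions. Of 22 genes tested, 5 were higher in AGEs and 3 higher in high glucose, shares near or below those over all genes. With library totals 4 and 7 were called, and with FPKM 4 and 8. The median was 0.08, but −0.11 to −0.12 under those scalings, −0.03 without high glucose library 3, −0.06 without AGEs library 2 and 0.04 without high glucose library 1. The glucose transporter gene Slc2a1 was at 457, 490 and 594 CPM in AGEs, 214, 200 and 191 in high glucose and 482, 459 and 504 in control (1.35, SE 0.10, adjusted p = 1.12e-05). The hexokinases diverged. Hk2 was higher in AGEs (158, 191 and 269 CPM against 64.5, 76.2 and 83; adjusted p = 0.000191) and Hk1 higher in high glucose (148, 143 and 131 CPM against 58, 66.6 and 60.9; adjusted p = 0.000138). Neither pair of groups overlapped. H6pd, the ER-lumen hexose-6-phosphate dehydrogenase that supplies NADPH inside the ER, was 3.35-fold higher in high glucose (247, 256 and 263 CPM against 77.2, 73.9 and 77.3; adjusted p = 3.7e-07).

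Among lipid genes called, those of fatty acid oxidation and synthesis were more often higher in high glucose, and cholesterol genes were split. Of 25 genes of fatty acid oxidation, 13 were higher in high glucose, 3 in AGEs and 9 not called, with a median of −0.29 (−0.16 without high glucose library 2, −0.49 with library totals). Pdk4, which restrains pyruvate oxidation, was at 24.2, 25.6 and 27.3 CPM in high glucose and 4.16, 4.07 and 3.42 in AGEs (6.62-fold, adjusted p = 1.59e-06), and Cpt1a, which admits fatty acids to mitochondria, was 1.99-fold higher. The peroxisomal oxidase Acox2 was the reverse, at 148, 164 and 90.6 CPM in AGEs, 4.67, 4.39 and 4.32 in high glucose and 107, 118 and 125 in control (30.1-fold, adjusted p = 8.29e-07). Of 19 genes of fatty acid synthesis and lipid droplets, 10 were higher in high glucose and 2 in AGEs (1 without any 1 of high glucose libraries 1 and 3 or AGEs libraries 1 and 3), with a median of −0.48; the desaturase Scd2 (1247, 1267 and 1395 CPM against 533, 510 and 596) and the elongase Elovl6 differed by −1.25 and −1.24. Fasn, fatty acid synthase, was one of the 2 higher in AGEs (0.31, adjusted p = 0.0333), and with library totals none of the list was. Cholesterol genes were split, 9 higher in AGEs and 10 higher in high glucose of 26, with a median of −0.14, and with library totals the split was 4 and 14 and the median −0.34. Soat2, which esterifies cholesterol, differed by 4.84 at a low level (4.68, 4.3 and 1.73 CPM in AGEs, 0.241, 0.0788 and 0.0378 in high glucose, adjusted p = 0.000245) and by 5.97 without high glucose library 1.

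Mitosis and DNA replication genes went different ways. Of 30 genes of mitosis and the spindle checkpoint, 25 were higher in high glucose and none in AGEs, with a median of −0.91. Plk1, the kinase that drives entry into mitosis, was at 183, 166 and 160 CPM in high glucose, 33.5, 41.3 and 58.4 in AGEs and 45.3, 43.1 and 44.3 in control (−1.93, SE 0.17, adjusted p = 3.33e-05). Bub1b, Aurka and Cdk1 differed by −1.61, −1.38 and −0.93. The list took 0.617 ± 0.029% of counts in high glucose, 0.308 ± 0.023% in AGEs and 0.294% in control. Of 32 DNA replication genes, 14 were higher in AGEs and 4 higher in high glucose, with a median of 0.23, but with library totals 7 were called in each direction (median 0.03). Mcm2, a subunit of the replicative helicase, was at 477, 496 and 518 CPM in AGEs and 319, 327 and 320 in high glucose (1.54-fold, adjusted p = 4.76e-05), and the loader Cdc6 differed by 0.79. Ccne1, cyclin E1, was higher in high glucose (−1.02, adjusted p = 3.12e-05). Ccnf, a cyclin of the later cell cycle, was among the 12 smallest p-values in that direction (130, 129 and 117 CPM against 41, 44.4 and 45.1; adjusted p = 1.19e-06).

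**Figure D3:**
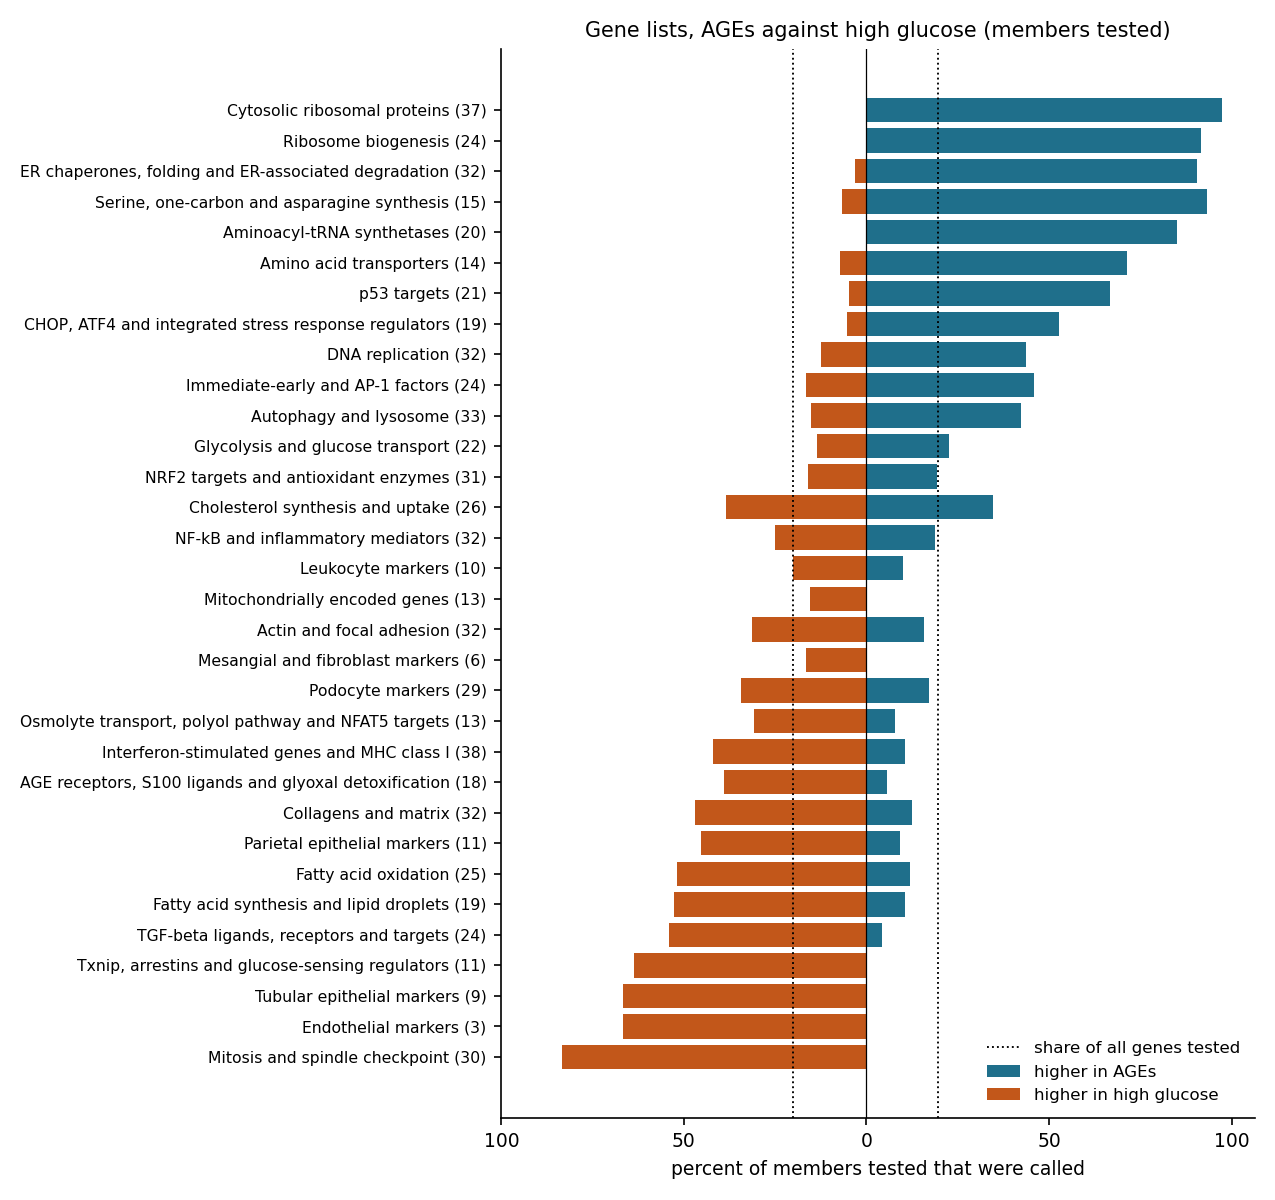
Share of the members tested in each gene list (number in brackets) that was called higher in AGEs (right) or higher in high glucose (left); dotted lines mark 19.7% and 20.2%, the shares over all genes tested. The stress, amino acid and ribosome lists reach far to the right, mitosis, tubular markers and the Txnip list far to the left, and glycolysis and the NRF2 list stay near the lines.

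TGF-beta and BMP genes were higher in high glucose in 13 of 24 cases and higher in AGEs in 1 (2 without AGEs library 3), with a median of −0.62. Id1, Id2 and Id3, inhibitors of differentiation factors that BMP signals switch on, differed by −1.68, −2.34 and −2.17. Id2 was at 150, 101 and 101 CPM in high glucose, 18.8, 22.4 and 28.3 in AGEs and 39.5, 36.5 and 36.9 in control, so that all AGEs libraries were also below all control libraries (AGEs against control −0.70, adjusted p = 0.262). The inhibitory SMAD gene Smad6 was at 19.4, 18.1 and 19 CPM in high glucose and 1.93, 2.74 and 1.98 in AGEs (−3.08, SE 0.19, adjusted p = 3.77e-06). The ligand gene Tgfb1 differed by −0.76, the co-receptor Tgfbr3 by −1.64 and the transducer Smad3 by −1.47. Ccn2 (connective tissue growth factor) was the member higher in AGEs, at 308, 253 and 438 CPM against 73.9, 152 and 156 (1.39, SE 0.28, adjusted p = 0.00351).

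Matrix genes were higher in high glucose in 15 of 32 cases and higher in AGEs in 4, with a median of −0.65. Without high glucose library 3 the counts were 11 and 3 (median −0.37), without AGEs library 2 they were 11 and 4 (median −0.40), and 2 were higher in AGEs with library totals or without high glucose library 1, high glucose library 2 or AGEs library 3. Col6a1 (−2.32, log2), Loxl2, which cross-links collagen (2.58-fold), Nid2 (2.07-fold) and Sparc (1.94-fold) were higher in high glucose. Fibronectin, Fn1, was higher in AGEs at 999, 755 and 1048 CPM against 334, 428 and 550 (1.09, SE 0.19, adjusted p = 0.00141), and so was the laminin chain Lama5, at 517, 473 and 566 CPM against 282, 285 and 353 (0.76, adjusted p = 0.000451). Neither overlapped between the treatments. Nid2 overlaps Rtraf on the opposite strand, which has more counts (131152 against 28652), and its value is uncertain for that reason.

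Genes of inflammation were divided, and interferon-stimulated genes were more often called higher in high glucose than in AGEs. Of 38 interferon-stimulated and MHC class I genes, 16 were higher in high glucose, 4 in AGEs and 18 not called, with a median of −0.57. Oasl1, an antiviral gene, was at 16.3, 14.1 and 12.9 CPM in high glucose and 3.16, 3.33 and 3.13 in AGEs (4.50-fold, adjusted p = 1.19e-05). Psmb8, an immunoproteasome subunit, was 2.19-fold higher, while B2m, the MHC light chain, was slightly higher in AGEs (0.28, adjusted p = 0.0162). With library totals no member of the list, B2m included, was called higher in AGEs, and without high glucose library 2, high glucose library 3 or AGEs library 2 the number was 2, 1 and 2. Of 32 NF-kB genes and mediators, 6 were higher in AGEs and 8 higher in high glucose, shares near those of all genes. Their median was −0.16, with −0.05, −0.59 and −0.09 without AGEs library 1, 2 or 3 and −0.36 with library totals. Ptgs2 (cyclooxygenase-2) was at 56.3, 52.1 and 76.6 CPM in AGEs, 14.8, 16 and 16.5 in high glucose and 41.6, 39.9 and 36.2 in control (3.91-fold, adjusted p = 1.12e-05). Nfkbia, the inhibitor of NF-kB, was higher in high glucose (46.7, 49.5 and 45.8 CPM against 18.4, 25.4 and 20.7).

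Ccl2, a monocyte chemokine, was high in both treatments and higher in high glucose. It was at 301, 295 and 301 CPM in high glucose, 64.2, 168 and 192 in AGEs and 41.6, 40.8 and 33.8 in control. All AGEs libraries were above control and below high glucose, and AGEs library 1 was well below the other two. The difference between the treatments (−1.08, SE 0.32, adjusted p = 0.0226) lost its call without any 1 of the high glucose libraries. AGEs against control was not called (1.87, adjusted p = 0.12). Slc39a10, a zinc importer, had a like order, at 30, 30.1 and 37.1 CPM in high glucose, 15.8, 13.9 and 19 in AGEs and 7.82, 8.7 and 6.79 in control (adjusted p = 0.000756).

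Receptors for AGEs differed in direction: Ager and Scarb1 were called higher in high glucose, Lgals3 was called higher in AGEs, and Ddost, Prkcsh, Msr1, Cd36 and Stab1 were not called. Ager, which encodes RAGE, was at 0.856, 0.724 and 0.947 CPM in AGEs, 3.82, 2.36 and 1.44 in high glucose and 1.05, 0.494 and 0.268 in control (−1.59, SE 0.51, adjusted p = 0.0313), a call lost without any 1 of high glucose libraries 1 and 2 or AGEs libraries 1 to 3. Lgals3 was at 860, 995 and 928 CPM in AGEs, 396, 374 and 334 in high glucose and 1008, 933 and 1097 in control (2.52-fold, adjusted p = 7.38e-06). Of 18 AGE receptors, S100 ligands and glyoxal enzymes tested, 7 were higher in high glucose, 1 in AGEs and 10 not called, with a median of −0.44 (−0.21 without high glucose library 2, −0.28 without AGEs library 3). S100a4 (4.84-fold) and S100a11 (2.39-fold) were among those higher in high glucose. Of 13 genes of osmolyte transport and the polyol pathway, 4 were higher in high glucose and 1 in AGEs (6 and 0 with library totals; median −0.40), including the taurine transporter Slc6a6 (−0.90) and the water channel Aqp1 (−2.07). Nfat5, the osmotic response factor, ran from 38.3 to 123 CPM in AGEs and from 20.7 to 127 in high glucose and was not called (0.44, SE 0.73, adjusted p = 0.682); it was 1.66 without high glucose library 3 and −0.000219 without AGEs library 1.

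Podocyte genes were heterogeneous. Of the 29 tested, 10 were higher in high glucose and 5 in AGEs, with a median of −0.38. The split was 13 and 3 with library totals (median −0.58), 9 and 3 without high glucose library 1 and 12 and 3 without AGEs library 3. Synpo, which encodes the actin-bundling protein synaptopodin, was at 73.2, 54.6 and 32.4 CPM in high glucose, 8.53, 7.75 and 5.45 in AGEs and 22, 25 and 20.2 in control (−2.88, SE 0.29, 7.37-fold, adjusted p = 6.33e-05). Every AGEs library was below every control library as well, but AGEs against control was not called (−1.63, adjusted p = 0.117). Arhgap24, a Rac-inactivating protein, was at 47.4, 39 and 39.3 CPM in high glucose, against 5.03, 5.1 and 5.72 in AGEs (7.93-fold, adjusted p = 1.01e-06). Vegfa, the growth factor that podocytes supply to the capillary, was higher in AGEs (101, 109 and 122 CPM against 49.7, 48.7 and 47.7; 2.27-fold, adjusted p = 8.07e-06). Podxl (podocalyxin) differed by 0.46 (adjusted p = 0.0218), a call lost without high glucose library 1 or AGEs library 3 and with library totals (0.25) or FPKM.

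Nphs1, the slit diaphragm protein nephrin, varied too much to compare. It was at 68.9, 102 and 6.98 CPM in AGEs, 4.17, 34.3 and 3.53 in high glucose and 47.5, 5.67 and 12.2 in control (2.09, SE 1.17, adjusted p = 0.193). Without high glucose library 2 the difference was 3.94 and called (adjusted p = 0.0408), and without AGEs library 2 it was 1.45. It overlaps the pseudogene Rps12-ps4 on the opposite strand. Of 32 actin and focal adhesion genes, 10 were higher in high glucose and 5 in AGEs (median −0.08), but 15 and 2 with library totals (median −0.28) or FPKM. Without single treated libraries the calls ranged from 7 to 12 and from 2 to 6, with medians from −0.21 (without AGEs library 3) to −0.03 (without AGEs library 2). Itgb3, an integrin chain, was 6.42-fold and the adaptor Pxn 2.13-fold higher in high glucose, and the integrin Itgav was higher in AGEs (0.91, adjusted p = 0.0447).

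Some markers of other kidney cells, chiefly tubular and parietal, were higher in high glucose. Of 9 tubular markers tested, 6 were higher in high glucose and none in AGEs, with a median of −1.07 (−1.61 without AGEs library 2). Their summed level ran from 556 to 592 CPM in high glucose, 167 to 239 in AGEs and 172 to 179 in control, while the defining Slc34a1, Umod and Aqp2 were at 0 in all 6 treated libraries. Cdh16, the kidney cadherin, was at 327, 302 and 312 CPM in high glucose and 93.9, 95.5 and 117 in AGEs (3.07-fold, adjusted p = 2.58e-06). Of 11 parietal epithelial markers, 5 were higher in high glucose and 1, Cd44, in AGEs, with a median of −0.37 (−0.69 without AGEs library 2, −0.58 with library totals) and summed levels of 2684 to 2882 CPM in high glucose and 1642 to 2075 in AGEs. Only 3 were higher in high glucose when its library 2 or AGEs library 1 was left out. Cd24a was 5.48-fold and Pax2 7.88-fold higher in high glucose. Endothelial markers (2 of 3 tested higher in high glucose; summed 12.5 to 15.2 against 4.25 to 5.07 CPM), mesangial and fibroblast markers (1 of 6; 49.2 to 54.6 against 29.4 to 34.1) and leukocyte markers (2 of 10, and 1 higher in AGEs; 136 to 152 against 79.1 to 94.0) were low. The counts of the mesangial and leukocyte lists are near the 20.2% of all genes higher in high glucose. The part of these markers in the differences between the treatments was not tested.

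Targets of NRF2, the factor that answers oxidants and electrophiles, split in this contrast: of 31 tested, 6 were higher in AGEs and 5 higher in high glucose, near the shares of all genes, with a median of −0.02 whose sign changed without high glucose library 2 (0.05) or AGEs library 1 (0.02). With library totals the split was 5 and 14, with DESeq2 7 and 9. Gsta1, an alpha-class glutathione S-transferase (chr9:78230656-78242684, plus strand), was at 12.8, 13.3 and 14.9 CPM in AGEs, 0.917, 0.631 and 0.277 in high glucose and 0.895, 1.38 and 1.12 in control. AGEs alone were high. It differed by 4.49 from high glucose (SE 0.39, 22.4-fold, adjusted p = 2.76e-05) and by 3.59 from control (adjusted p = 0.0104). Gsta3 was at 9.93, 11.1 and 15.5 CPM in AGEs, 1.5, 2.9 and 2.33 in high glucose and 1.29, 1.51 and 1.24 in control (2.45, SE 0.27, adjusted p = 0.000105). Genes of this class are similar in sequence, so reads may have been shared among them.

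Other members showed 2 further patterns. Gsta4 and Nqo1, a quinone reductase, were above control in both treatments and not called between them: Gsta4 was at 60.8, 62.8 and 91.3 CPM in AGEs, 63.2, 50.7 and 46.5 in high glucose and 12.8, 14.3 and 13 in control (0.42, adjusted p = 0.0761), and Nqo1 averaged 55.1 ± 2.21, 49.6 ± 8.16 and 26.0 ± 1.68 (0.15, adjusted p = 0.363). Gclm, Gsr and Prdx1, which make and use glutathione or reduce peroxides, were higher in high glucose (−0.50, −0.91 and −0.73). Hmox1, heme oxygenase, was higher in AGEs at 411, 435 and 556 CPM against 138, 140 and 128, with control at 352, 353 and 368 (3.45-fold, adjusted p = 3.85e-06).

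**Figure D4:**
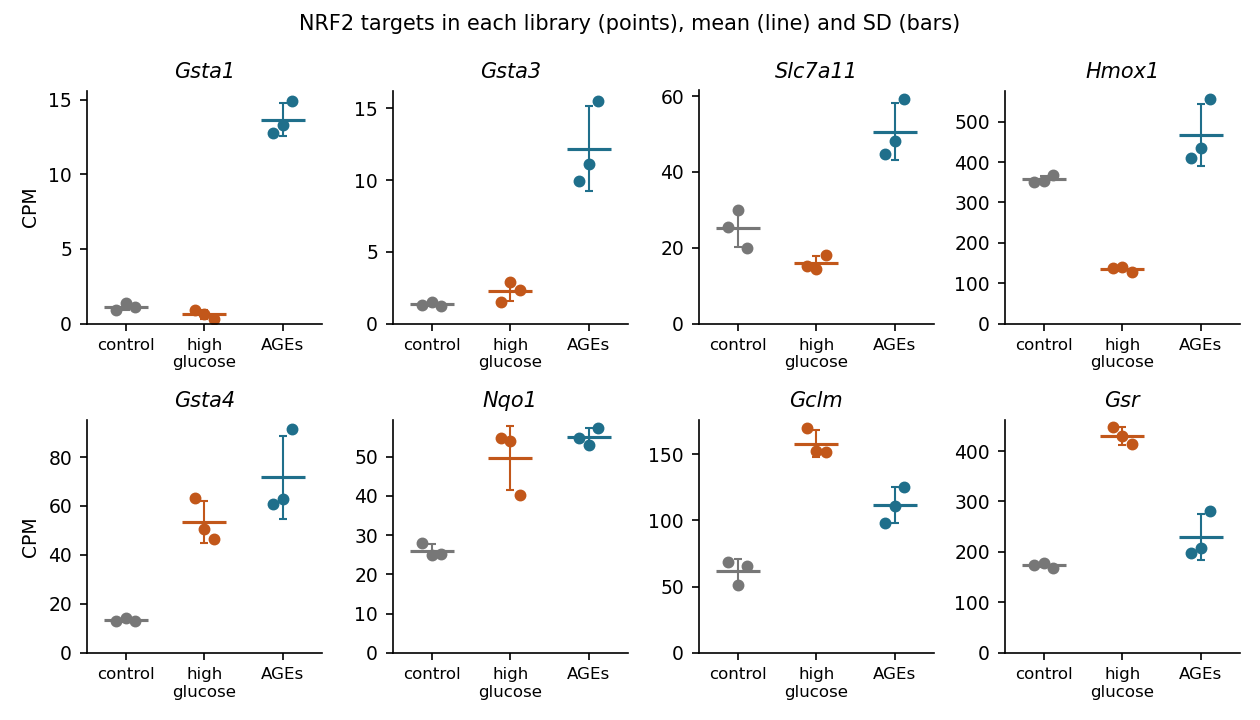
CPM of 8 NRF2 targets in each library, by group; points are libraries, lines the mean and bars the SD of 3. Gsta1, Gsta3 and Slc7a11 are highest in AGEs, Gsta4 and Nqo1 are above control in both treatments, and Gclm and Gsr are highest in high glucose.

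The direct contrast and that of AGEs against control, which share the AGEs libraries, both called 8 genes: Gsta1, Gsta3, Mt2, Cd2bp2, Eps8, Fgfr1op, Nanp and Dleu2. Nanp, a phosphatase of sialic acid synthesis (chr2:151029685-151039398, minus strand), had 0 counts in each AGEs library, 691, 408 and 781 in high glucose and 383, 630 and 472 in control. Against a floor of 3 counts over the AGEs group it was at least 597-fold lower there than in high glucose. Dleu2, a long noncoding RNA gene (chr14:61602839-61682373, minus strand), was at 1.99, 2.88 and 2.11 CPM in AGEs, 22.7, 17.5 and 21.6 in high glucose and 15.7, 15.2 and 11.4 in control (8.85-fold lower, adjusted p = 4.84e-06). It overlaps Trim13 on the opposite strand, which was not called (0.17, adjusted p = 0.364). Fgfr1op, a centrosome protein gene, was at 63.3, 53.9 and 44.8 CPM in AGEs, 20.4, 17.7 and 18.7 in high glucose and 21.4, 23.9 and 19.5 in control (2.86-fold higher, adjusted p = 3.86e-05). Eps8, which caps and bundles actin, was at 29.9, 30 and 29.1 CPM in AGEs and between 14.7 and 18.6 in all other libraries (1.82-fold, adjusted p = 0.000194). Mt2 and Cd2bp2 were lower than control in both treatments, and their small differences between treatments (0.39 and 0.33) lost the call with library totals.

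Outside the lists, the smallest p-values in favour of AGEs included Stbd1, which binds glycogen (137, 147 and 156 CPM against 25, 24.9 and 25 in high glucose; 5.88-fold, adjusted p = 1.41e-07), the sterol carrier Stard5 (7.64-fold), the phosphate transporter Slc20a1 (6.11-fold) and Cdsn (6.99-fold). Those in favour of high glucose included the linker histone H1f0 (1114, 1093 and 1044 CPM against 231, 242 and 255 in AGEs; 4.46-fold, adjusted p = 1.41e-07), the carboxypeptidase Cpm (9.11-fold), Castor2 (4.94-fold), the choline dehydrogenase Chdh (7.25-fold) and the guidance ligand Sema3f (3.97-fold). Control lay near AGEs for all of these, with AGEs against control between −0.66 (Chdh, adjusted p = 0.143) and 0.15 (Slc20a1, adjusted p = 0.451).

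Largest fold changes came from genes that were nearly silent in 1 treatment. Ostn, a secreted peptide gene, had 198, 213 and 109 counts in AGEs, 150, 197 and 128 in control and 0 in every high glucose library. It was at least 182-fold higher in AGEs than in high glucose. Avil, an actin-severing protein gene that overlaps Tsfm on the opposite strand, was at 30.3, 27.6 and 12.6 CPM in AGEs and 0.398, 0.276 and 0.353 in high glucose (67.3-fold, adjusted p = 3.38e-06). Its control libraries were at 27, 28.2 and 31.8 CPM. Cldn9, a claudin, had 209, 91 and 184 counts in high glucose, 0, 0 and 4 in control and 0 in every AGEs library. It was at least 154-fold higher in high glucose than in AGEs. Adgra1, an adhesion receptor gene, was at 36.5, 31.4 and 34.4 CPM in high glucose, and in AGEs it had 0 counts in libraries 1 and 2 and 30 in library 3. Bmf, a pro-apoptotic BCL2 family gene, was at 11.4, 15.9 and 15.7 CPM in high glucose, and in AGEs it had 0 counts in libraries 1 and 3 and 42 in library 2. For both, the fitted log2 fold changes of −7.84 (adjusted p = 0.000157) and −6.12 (adjusted p = 0.00187) rest on 1 AGEs library, and without it they were −14.17 and −12.92, values set by 0 counts. They were −7.25 (Adgra1 without AGEs library 2) and −5.53 (Bmf without AGEs library 3) when a library with 0 counts was left out.

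Autophagy and lysosome genes and mitochondrial transcripts showed small median differences that moved with the scaling. Of 33 autophagy and lysosome genes, 14 were higher in AGEs and 5 higher in high glucose, with a median of 0.10 (0.16 without high glucose library 1). With library totals 10 were called in each direction and the median was −0.09, and the FPKM fits gave 10 against 9 or 10. The cargo receptor Sqstm1 (p62) was at 1127, 1204 and 1349 CPM in AGEs and 461, 457 and 445 in high glucose (2.70-fold, adjusted p = 1.95e-06), and the lysosomal channel gene Mcoln1 was 2.03-fold higher. Of 13 mitochondrially encoded genes, 2, mt-Nd1 (−0.55) and mt-Cytb (−0.52), were higher in high glucose and none in AGEs, with a median of −0.09; 6 were higher in high glucose with library totals and 5 with FPKM (medians −0.28 and −0.27). The median was 0.05 without high glucose library 1, −0.13 without high glucose library 3 and −0.05 without AGEs library 3, when 1 gene was higher in AGEs. All genes of the mitochondrial chromosome together took 3.26 to 4.11% of counts in high glucose and 2.96 to 3.30% in AGEs. The 13 listed genes alone averaged 3.60% in high glucose and 3.04% in AGEs.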

How the data were processed

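RNA of 9 libraries (TRIzol, SuperScript II, per the labels' protocols) was sequenced. The authors deposited raw counts and FPKM per gene (FPKM of 0 is written as 0.0001), and cutadapt 1.9, FastQC and the build GRCm38 are named in the submitters' processing notes; no source used here names the aligner, the counter or its strand setting. Counts were tested with edgeR 4.0.16 (R 4.3.3): filterByExpr, TMM, quasi-likelihood fit of all 9 libraries with 3 group means, and Benjamini-Hochberg adjustment over 17680 genes. CPM were computed here. Positive log2 fold changes mean higher in AGEs, and unlabelled values in brackets beside a gene are such fold changes. Standard errors are the fold change over the square root of the F statistic, and SDs are over 3 libraries.

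Alternatives were DESeq2 1.42.0, limma 3.58.1 on log2(FPKM + 1 or 0.1), other scalings and filters, only the 6 libraries, a replicate block and leaving out each library. Alternatives given beside a list count are selected and not all of those that changed it. Low counts of 4 (9186 entries) and 8 (4896) were commoner than 3 (2519) and 7 (1632), so the deposited counts may not be plain single reads.

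Members and gene lists were chosen with earlier results of these data known. Named genes were the 12 smallest p-values and 12 largest fold changes per direction (mean FPKM of at least 1, no overlap), up to 4 called members per list by p, fixed genes of interest, genes called also against control, and 6 per direction with control outside both treatments. Other genes named were chosen after their values were seen. Another gene of the cholesterol list is not reported here.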

Additional observations from a re-analysis of the deposited data

How the results depend on the processing

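With library totals the number of genes higher in AGEs was 2251, and by limma on log2(FPKM + 1) it was 2314 against 3481. Genes higher in high glucose numbered 5509 by limma on log2(FPKM + 1) and 5433 with a pseudocount of 0.1, against 3572. Each of these counts moved by over 1.5 times, and the cause was not tested. Leaving out each of the 9 libraries in turn gave 2945 to 3535 genes higher in AGEs and 2952 to 3599 higher in high glucose. With the replicate block the counts were 3150 and 3240, and 6278 of the 7053 calls were kept. Residual correlations of same-numbered AGEs and high glucose libraries were 0.00237, 0.0844 and −0.0189 over 17680 genes. Those of libraries with different numbers ran from −0.0686 to 0.0736. With residuals about means of 3 libraries, these values cannot settle whether the replicate numbers pair the libraries. Of 3092 alternative values for 172 named genes, 3047 kept direction and call, 43 lost the call, 1 (Nphs1) gained it and 1 reversed, Nfat5 without AGEs replicate 1 (−0.000219; it was 1.66 without high glucose replicate 3). Calls were lost under at least 1 alternative for Mt2, Cd2bp2, Lca5, Padi1, Ly6f, Ccl2, Il18rap, Slc38a2, Cd68, Ager and Podxl. Of 1152 list counts, 98 moved by over 1.5 times. With 3 libraries a group, small differences and genes of few counts are poorly resolved.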
